A study of Danio rerio with 6 samples.

Results

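The genes described here are the glucocorticoid receptor of the zebrafish (Danio rerio) and genes known to respond to glucocorticoids and other stress hormones, measured in adult testes. The members are nr3c1, fkbp5, tsc22d3, klf9, arrdc2, txnip, sgk1, cebpa, cebpb and cebpd, 10 symbols that were all found among the 32520 genes of the deposited table. The symbol TXNIP stands for 2 identifiers, so 11 identifiers are described. Wild-type adult fish had nanoplastics, tiny polystyrene particles, added to their water every 24 h for 96 h (exposed, 3 fish), or received no plastics (control, 3 fish). Neither particle size nor dose is given in the labels. The testes of 1 animal made 1 library, after poly(A) enrichment, so p-values measure only the spread between these fish. The libraries carry the numbers of their labels, replicate first and animal second, and are called exposed 2-2, exposed 3-1 and exposed 3-3, or control 1-2, control 2-2 and control 3-1. The meaning of the replicate number, which exposed 3-1 and exposed 3-3 share, is not given.

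Cortisol is the main glucocorticoid of fish. It is made in the interrenal tissue of the head kidney at the end of a hormone chain that starts in the brain. In the cell it binds the receptor NR3C1, which waits in the cytoplasm held by HSP90 and its partner proteins and then acts in the nucleus as a transcription factor. Among the genes it is known to induce are brakes on its own action, such as FKBP5, and genes of metabolism, growth arrest and inflammation control. In the testis, glucocorticoids are known to act on Leydig cells, where they can lower androgen synthesis. The members were chosen by their expression in exposed against control libraries, the same comparison as here, so their values are a description and no test is drawn from them. No sequences of these genes were used here.

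Levels below are counts per 1000000 (CPM) after TMM scaling, and means are given ± SD with n = 3 per group. They are not divided by gene length, so levels are compared between libraries and not between genes. Log2 fold changes are exposed over control ± SE from edgeR's quasi-likelihood fit over all 26108 genes that passed a filter on low counts. Column totals ran from 96029888 to 108273937 counts in exposed libraries and from 76205591 to 86765952 in controls. The lowest count of any member in any library was 84, and all 11 identifiers passed the filter.

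The libraries differed in their content of other tissues. Summed over 20 epidermis markers, exposed 2-2 and exposed 3-1 held 18330 and 14872 CPM, whereas exposed 3-3 held 1931 CPM, inside the range of 1471 to 3718 CPM of the controls. For 13 of these 20 markers, though, every exposed library lay above every control library, as did 12.8% of all genes tested. Summed over 17 liver markers, control 3-1 held 24400 CPM, against 8465 CPM in exposed 3-1 and between 257 and 2447 CPM in the other 4 libraries. Summed over 9 red blood cell markers, exposed libraries held 3352 to 4646 CPM, against 906 to 2328 CPM in controls. Summed over 29 leucocyte markers, exposed libraries held 3092 to 6164 CPM, against 1042 to 2185 CPM in controls. These 29 are identifiers, several of which share the name MFAP4 or MPEG1. Of them, 26 were above 0 on the log2 scale, as were 52.1% of all genes tested. Summed over 13 germ cell markers, exposed libraries held 3540 to 5295 CPM, against 7759 to 8144 CPM in controls, and 0 of 13 were above 0. Summed over 14 kidney tubule markers, exposed 2-2 held 1578 CPM, against 226 to 313 CPM in the other 5 libraries. Every marker of these 6 lists had counts in both groups. Whether fewer cells of a type or less RNA per cell lies behind such differences cannot be told apart in whole tissue, and the part of these tissues in the values below was not tested.

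**Figure D1:**
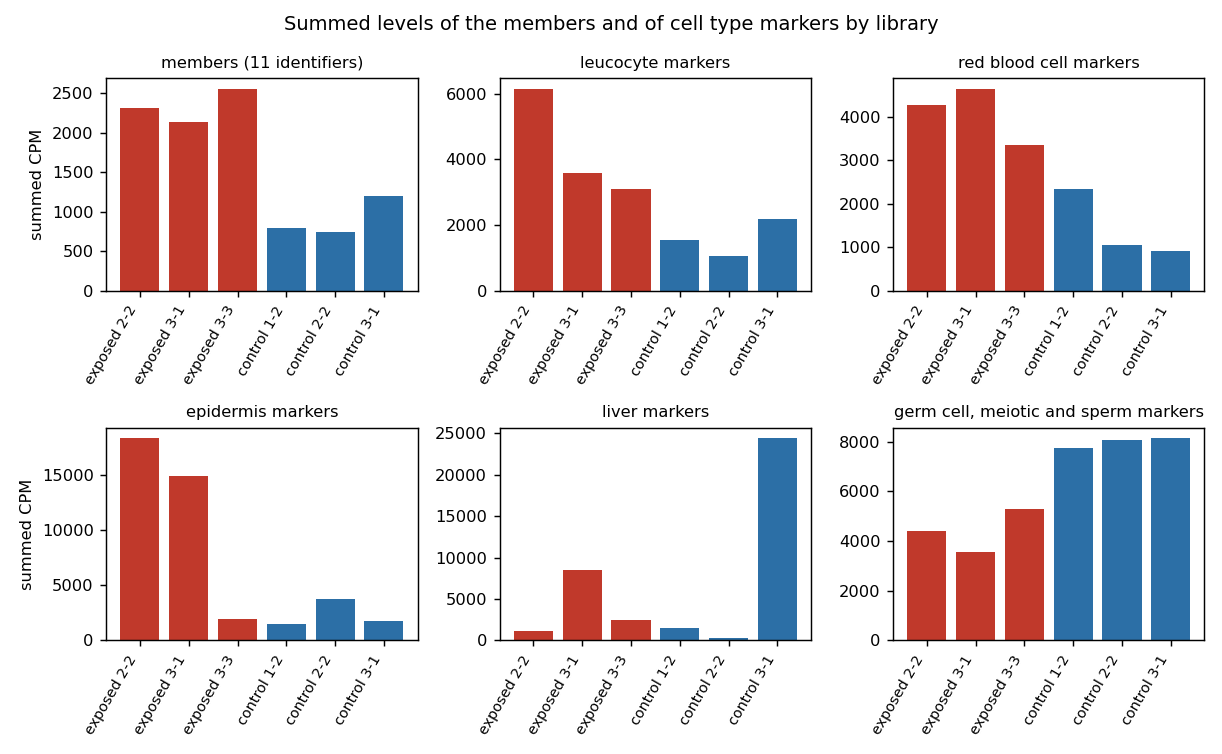
Summed CPM (vertical axes, from 0) of the 11 member identifiers and of 5 marker lists in each library, with exposed libraries in red and controls in blue. Epidermis markers are high in exposed 2-2 and exposed 3-1, liver markers in control 3-1 and exposed 3-1, and leucocyte markers in all 3 exposed libraries.

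All 11 member identifiers had a log2 fold change above 0, as did 52.1% of all genes tested. The values ran from 0.63 for CEBPD to 2.02 for ARRDC2, with a median of 1.46, beside 0.04 over all genes. For 5 of the 11, tsc22d3, KLF9, ARRDC2, the abundant TXNIP identifier and CEBPA, every exposed library lay above every control library, as did 12.8% of all genes tested. For the other 6, the receptor and FKBP5 among them, the groups overlapped. None of the 11 passed 0.05 after Benjamini-Hochberg adjustment in edgeR (0% of all genes did), with adjusted p between 0.0882 and 0.728. At an unadjusted edgeR p under 0.05, 6 of the 11 were higher, as were 9.68% of all genes, and DESeq2 called 5 of the 11 higher, as it did 4.82% of all genes, with 1.2% of all genes called lower. Because the rule had this comparison in view, nothing is read from these counts. The lists around the members, described below, were also chosen with earlier results of these data known, and their counts are a description.

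**Figure D2:**
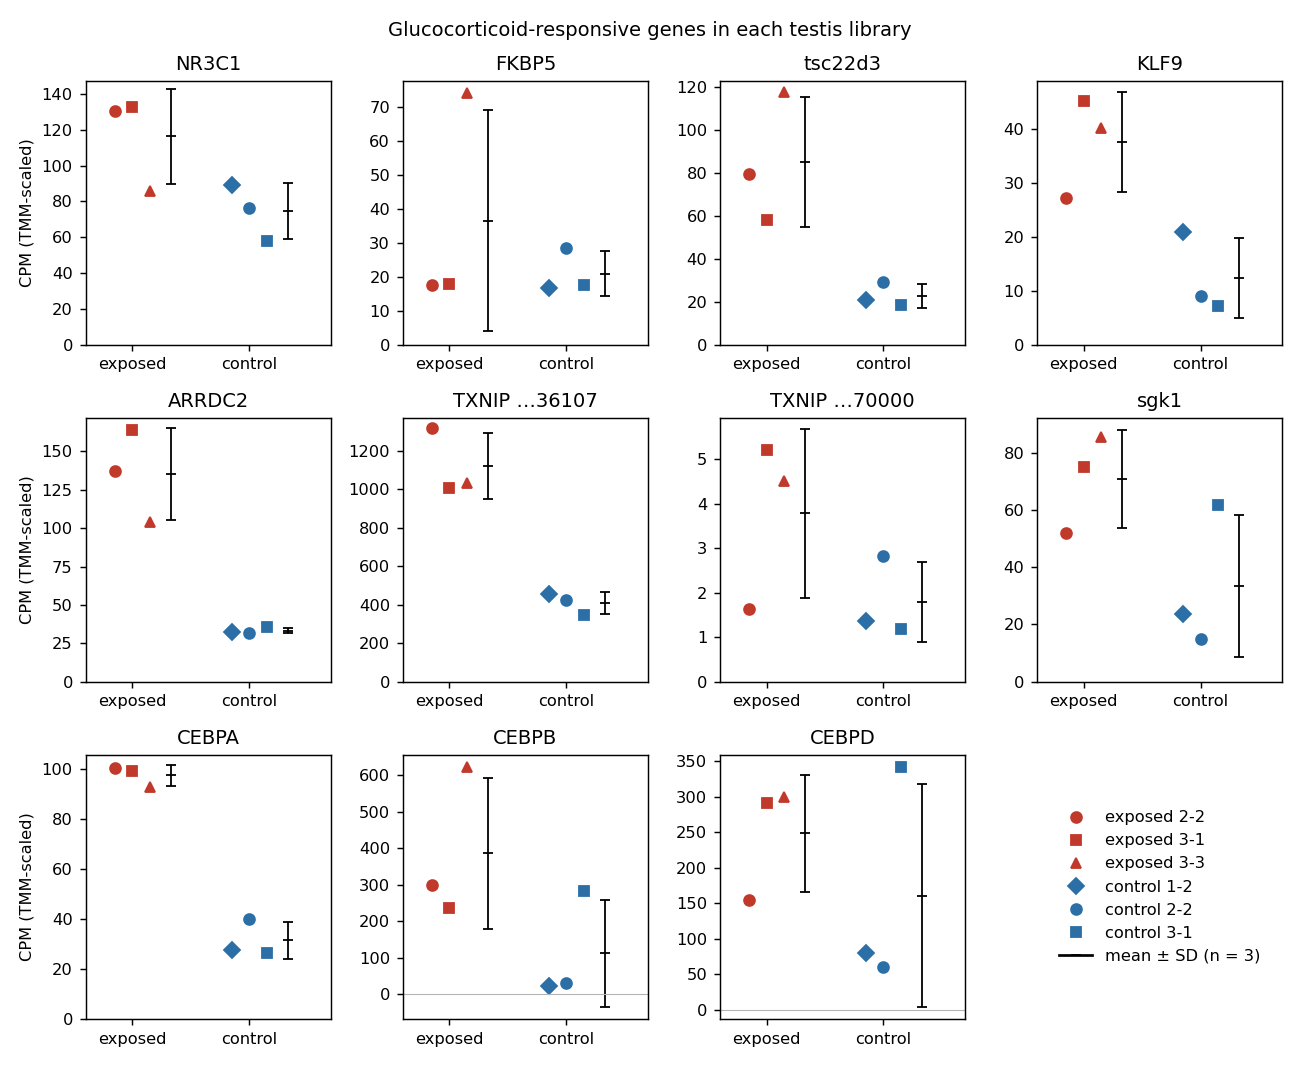
CPM of each member (vertical axes, each from 0, or below it where an SD bar reaches below) in the 3 exposed libraries (red, left) and the 3 control libraries (blue, right), one marker shape per library label, with mean ± SD beside them. The 2 TXNIP identifiers are marked by their last digits; tsc22d3, KLF9, ARRDC2, the first TXNIP and CEBPA show no overlap between groups, while FKBP5 stands apart in exposed 3-3 alone.

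The receptor was higher on average in exposed testes, but its groups overlapped. NR3C1 (ENSDARG00000025032) had 131, 133 and 85.8 CPM in exposed 2-2, 3-1 and 3-3, against 89.2, 76.4 and 58.0 CPM in control 1-2, 2-2 and 3-1. Exposed 2-2 and exposed 3-1 lay above every control, and exposed 3-3 lay just under the highest control. The means were 116 ± 26.5 CPM in exposed testes and 74.5 ± 15.7 CPM in controls, a log2 fold change of 0.64 ± 0.26. The mineralocorticoid receptor NR3C2, which also binds cortisol and was named after its values were seen, had the same order of exposed libraries. It had 6.63, 6.85 and 3.87 CPM in exposed 2-2, 3-1 and 3-3, against 2.62, 4.15 and 2.79 CPM in control 1-2, 2-2 and 3-1 (log2 fold change 0.86 ± 0.48).

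FKBP5 (ENSDARG00000028396) encodes an immunophilin that joins the receptor's HSP90 complex and lowers its affinity for hormone, and its induction is a widely used sign of receptor activity in mammals and fish. It had 17.6, 17.7 and 74.1 CPM in exposed 2-2, 3-1 and 3-3, against 16.6, 28.4 and 17.6 CPM in control 1-2, 2-2 and 3-1. Exposed 3-3 alone was high, at 3.55 times the control mean, while exposed 2-2 and exposed 3-1 lay within the control range at 0.845 and 0.850 times that mean. The log2 fold change of 0.81 ± 0.60 therefore rested on that library, and without exposed 3-3 it was -0.24. Exposed 3-3 was also the exposed library with the lowest NR3C1.

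Unlike FKBP5, tsc22d3 and KLF9 were higher in every exposed library than in any control. The gene tsc22d3 (ENSDARG00000075666), whose mammalian counterpart is the glucocorticoid-induced leucine zipper protein GILZ, which restrains inflammatory signalling, had 79.4, 58.2 and 118 CPM in exposed 2-2, 3-1 and 3-3. It had 20.7, 29.2 and 18.6 CPM in control 1-2, 2-2 and 3-1. The lowest exposed library held 2.00 times the CPM of the highest control, and the log2 fold change was 1.90 ± 0.32. KLF9 (ENSDARG00000068194), a zinc-finger factor that the receptor induces in zebrafish and that feeds back on its targets, had 27.2, 45.2 and 40.1 CPM in exposed 2-2, 3-1 and 3-3. In control 1-2, 2-2 and 3-1 it had 20.9, 9.11 and 7.09 CPM. The gap between the groups was small, with the lowest exposed library at 1.30 times the highest control. Its log2 fold change was 1.60 ± 0.44, and 2.21 without control 1-2, the highest control.

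The alpha-arrestins, adaptor proteins that guide ubiquitin ligases to membrane proteins, held the member with the widest separation. ARRDC2 (ENSDARG00000020761) had 138, 164 and 104 CPM in exposed 2-2, 3-1 and 3-3, against 32.7, 32.0 and 35.4 CPM in control 1-2, 2-2 and 3-1. The controls were nearly equal, and the lowest exposed library held 2.94 times the highest control. The log2 fold change was 2.02 ± 0.23. TXNIP binds thioredoxin and limits glucose uptake. Its abundant identifier (ENSDARG00000036107) had 1320.1, 1007 and 1034 CPM in exposed 2-2, 3-1 and 3-3, against 457, 422 and 346 CPM in control 1-2, 2-2 and 3-1. Every exposed library held at least 2.20 times the highest control, with a log2 fold change of 1.46 ± 0.23. The other identifier named TXNIP (ENSDARG00000070000) was scarce, with 84 to 518 counts per library. It had 1.63, 5.21 and 4.52 CPM in exposed 2-2, 3-1 and 3-3, against 1.36, 2.83 and 1.18 CPM in control 1-2, 2-2 and 3-1 (log2 fold change 1.08 ± 0.68). Exposed 2-2 fell within the control range for it. The labels do not say how reads shared by these paralogs were counted.

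The kinase gene sgk1 (ENSDARG00000025522), which corticosteroids induce and which regulates ion channels and transporters, had 52.0, 75.0 and 85.6 CPM in exposed 2-2, 3-1 and 3-3. It had 23.6, 14.9 and 61.6 CPM in control 1-2, 2-2 and 3-1. Control 3-1 lay above exposed 2-2. The log2 fold change was 1.09 ± 0.51, and 1.86 without control 3-1.

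The 3 C/EBP factors, leucine-zipper transcription factors of liver, fat and myeloid cells, did not all share a pattern. Control 3-1 was the highest control for CEBPB and CEBPD but the lowest for CEBPA. It held the most liver transcripts of all libraries, but not these alone were high in it. Its leucocyte markers summed to 2185 CPM, against 1537 and 1042 CPM in control 1-2 and 2-2. The 29 immediate early genes described below summed to 1403 CPM in it, against 735 and 754 CPM in those controls. The part of any of these in the C/EBP values was not tested. CEBPA (ENSDARG00000036074), known for the differentiation of liver and myeloid cells, was the most even member in the exposed libraries. It had 101, 99.4 and 93.0 CPM in exposed 2-2, 3-1 and 3-3, against 27.8, 39.9 and 26.6 CPM in control 1-2, 2-2 and 3-1. The lowest exposed library held 2.33 times the highest control, and the log2 fold change was 1.63 ± 0.23. CEBPB (ENSDARG00000042725), a factor of the acute-phase and inflammatory response, had 299, 238 and 622 CPM in exposed 2-2, 3-1 and 3-3. It had 24.5, 31.6 and 283 CPM in control 1-2, 2-2 and 3-1. Control 3-1 held 10.1 times the mean of the other controls and lay between exposed 3-1 and exposed 2-2. The log2 fold change of 1.77 ± 1.06 was 3.77 without control 3-1 and 1.25 without exposed 3-3. CEBPD (ENSDARG00000087303), its partner in the same responses, had 154, 292 and 299 CPM in exposed 2-2, 3-1 and 3-3. It had 80.5, 60.9 and 342 CPM in control 1-2, 2-2 and 3-1. Control 3-1 was the highest of all 6 libraries, at 4.83 times the mean of the other controls, so the log2 fold change was 0.63 ± 0.69, and 1.80 without it.

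**Figure D3:**
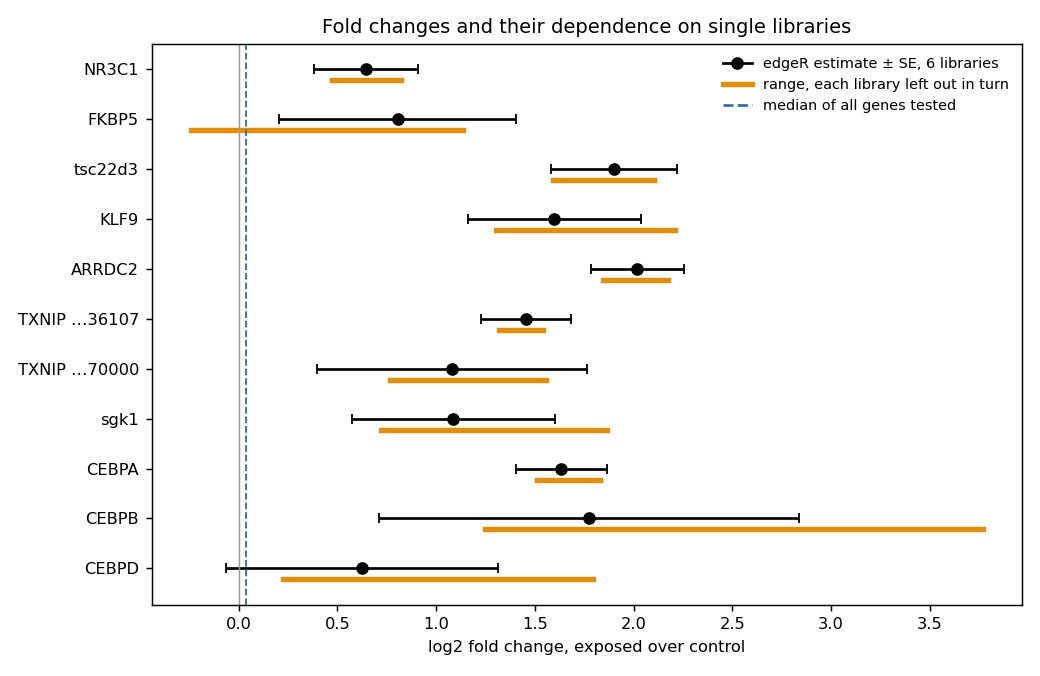
Log2 fold change of each member, exposed over control (horizontal axis), as edgeR's estimate ± SE (black) with the range of the estimates when each of the 6 libraries is left out in turn (orange); the dashed line is the median of all genes tested. FKBP5 runs from -0.24 to 1.14 and CEBPB from 1.25 to 3.77, while ARRDC2, the first TXNIP and CEBPA hold narrow ranges.

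The receptor and its targets did not rank the exposed libraries alike. Exposed 3-3 was the highest exposed library for 5 identifiers, FKBP5, tsc22d3, sgk1, CEBPB and CEBPD. Exposed 3-1 was highest for 4, NR3C1, KLF9, ARRDC2 and the scarce TXNIP, and exposed 2-2 for 2, the abundant TXNIP and CEBPA. Exposed 3-3 was at the same time lowest for NR3C1, ARRDC2 and CEBPA. Among controls, control 3-1 was lowest for 6 identifiers, the receptor included, and highest for ARRDC2, sgk1, CEBPB and CEBPD. In exposed 3-3 the summed epidermis markers lay within the control range, though their median log2 fold change with that library alone against the controls was 1.37. Compared with the control mean, exposed 3-3 held 5.51 times as much CEBPB, 5.16 times as much tsc22d3 and 3.24 times as much KLF9. It held 3.13 times as much ARRDC2, 2.96 times as much CEBPA and 2.53 times as much of the abundant TXNIP. For NR3C1 that ratio was 1.15. With exposed 3-3 alone set against the 3 controls, 9 of 11 identifiers lay above every control, as did 29.8% of all genes tested that way, and nothing is read from that count. The leucocyte markers summed to 3092 CPM in exposed 3-3, also above every control, and the part of either tissue in the member values was not tested.

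**Figure D4:**
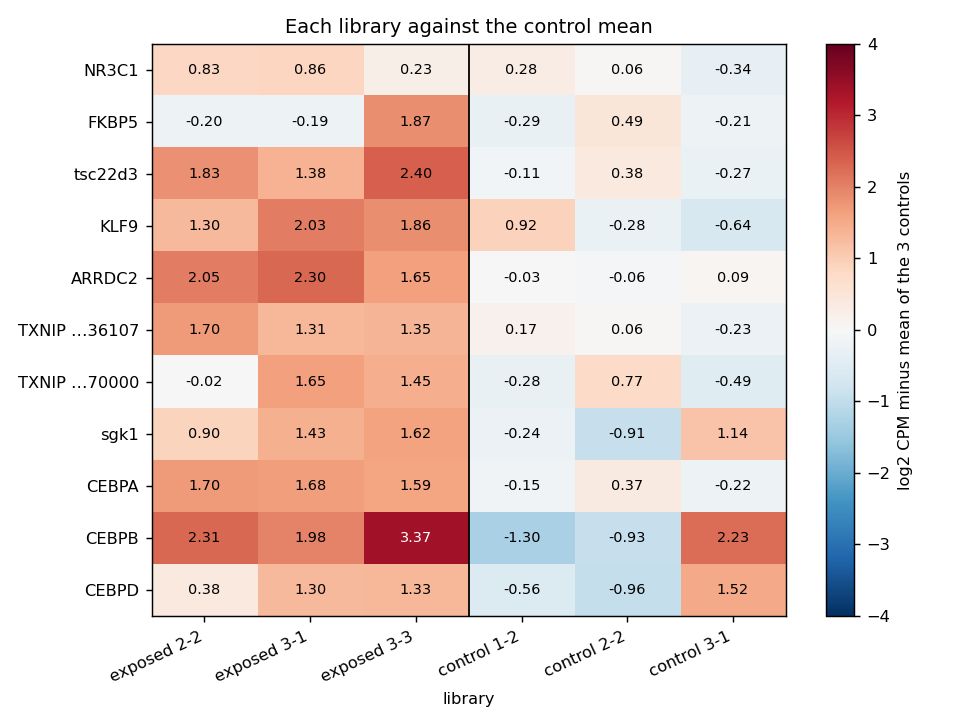
Log2 CPM of each member (rows) in each library (columns, exposed left of the line and controls right of it) minus the mean of the 3 controls, printed in each cell and coloured from blue (lower) to red (higher). NR3C1 is highest in exposed 2-2 and exposed 3-1, FKBP5 departs in exposed 3-3 alone, and control 3-1 is red for sgk1, CEBPB and CEBPD.

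The genes most like the receptor and FKBP5 were found by the smallest root mean square difference in log2 CPM relative to the control mean over the 6 libraries, among 13579 named genes with a mean of at least 5 CPM. For NR3C1 they were zdhhc5b, ssbp4 and BMPR2, with differences of 0.059, 0.065 and 0.076. The first of them had 31.9, 29.8 and 18.5 CPM in exposed 2-2, 3-1 and 3-3, against 20.3, 18.1 and 13.5 CPM in control 1-2, 2-2 and 3-1. For FKBP5 the nearest were TTN, pimr57 and alox5b.3, with larger differences of 0.22, 0.29 and 0.32. TTN, the giant spring protein of muscle, had 4.9996, 6.68 and 17.2 CPM in exposed 2-2, 3-1 and 3-3, against 4.79, 9.46 and 4.70 CPM in control 1-2, 2-2 and 3-1. Summed over 10 muscle markers, exposed 2-2, 3-1 and 3-3 held 90.1, 57.3 and 101 CPM, against 33.3 to 55.9 CPM in controls. Sums of lymphocyte and of neutrophil markers, set beside FKBP5 after the values were seen, were also highest in exposed 3-3. Over 13 lymphocyte markers, exposed 2-2, 3-1 and 3-3 held 238, 235 and 491 CPM, against 135 to 248 CPM in controls. The median log2 fold change of these lymphocyte markers was 1.24 without exposed 3-3 and 1.05 with exposed 3-3 alone, so their medians did not set that library apart. Over 9 neutrophil markers they held 780, 600 and 1106 CPM, against 665 to 964 CPM in controls. Most of these neutrophil sums came from srgn, with 669, 536 and 834 CPM, against 614 to 792 CPM in controls. The sum of the 29 leucocyte markers was instead lowest of the exposed libraries in exposed 3-3. The most abundant of them, cd74a, had 2733, 1579 and 1216 CPM in exposed 2-2, 3-1 and 3-3. The median log2 fold change of the leucocyte markers was 1.31 without exposed 3-3 and 1.46 with exposed 3-3 alone, so it was not lower there. The part of muscle or of these blood cells in the FKBP5 values was not tested.

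The chaperones that hold the receptor did not follow the members. Of 22 identifiers for corticosteroid receptors and chaperones, NR3C1 and FKBP5 included, 8 lay above 0 and 14 below, with a median log2 fold change of -0.12, which was -0.40 without exposed 3-3 and -0.28 without control 3-1. At an unadjusted edgeR p under 0.05, 1 was higher, NR3C1 itself, and 5 were lower, where 9.68% of all genes were higher and 6.79% lower. HSP90AB1, the most abundant chaperone, stood at 4242 ± 857 CPM in exposed testes and 4060.2 ± 279 CPM in controls (log2 fold change 0.06 ± 0.22). A second form, HSP90AA1 (ENSDARG00000024746) stood at 219.5 ± 36.9 CPM in exposed testes and 352 ± 51.1 CPM in controls, a log2 fold change of -0.68 ± 0.23. PPID, an immunophilin that competes with FKBP5 for the same site on HSP90, had 118, 107 and 135 CPM in exposed 2-2, 3-1 and 3-3, against 183, 222 and 173 CPM in control 1-2, 2-2 and 3-1. Its groups did not overlap, as was so in this direction for 10.9% of all genes. HSPA4 (ENSDARG00000004754) had -0.70 ± 0.28. Of the identifiers named HSPA8, the abundant one (ENSDARG00000068992) had 0.36 ± 0.27 and the scarcer one (ENSDARG00000037403) had -0.998 ± 0.28. The germ cell markers were lower in the same libraries, and their part in these values was not tested.

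Genes that make or inactivate cortisol were measured because the testis shares most of these enzymes with the interrenal tissue. Of 18 identifiers, 7 lay above 0 and 11 below, with a median of -0.35, which was 0.025 without control 2-2. At an unadjusted edgeR p under 0.05, 2 were higher and 3 lower, where 9.68% of all genes were higher and 6.79% lower. STAR, which carries cholesterol into mitochondria, had -0.70 ± 0.29, and CYP17A1, on the way to androgens, -0.90 ± 0.54. For CYP17A1, control 2-2 held 1228 CPM, against 301 and 469 CPM in control 1-2 and 3-1. Exposed 2-2, 3-1 and 3-3 held 521, 288 and 263 CPM of it. The enzyme gene cyp11c1, needed for both cortisol and 11-ketotestosterone, stood at 185 ± 59.5 CPM in exposed testes and 329 ± 110 CPM in controls (log2 fold change -0.83 ± 0.34). STAR, CYP17A1 and cyp11c1 are also among 9 Leydig cell markers, of which 8 lay below 0 (median -0.76, and -0.46 without control 2-2). Summed over these markers, exposed libraries held 1456 to 2504 CPM, against 2140 to 4364 CPM in controls. The part of Leydig cells in the enzyme values was not tested. The gene cyp17a2, whose enzyme serves cortisol synthesis in fish, had 92.4, 109 and 83.8 CPM in exposed 2-2, 3-1 and 3-3, against 154, 151 and 113 CPM in control 1-2, 2-2 and 3-1. On the higher side were SRD5A2 (ENSDARG00000043587), a steroid reductase, at 18.9, 19.2 and 12.3 CPM in exposed 2-2, 3-1 and 3-3, against 2.67, 3.72 and 5.04 CPM in control 1-2, 2-2 and 3-1, and hsd11b1la at 0.74 ± 0.28 on the log2 scale. HSD11B2, which turns cortisol into inactive cortisone and was named after its values were seen, overlapped between groups (log2 fold change -0.27 ± 0.55). The enzyme gene cyp21a2, which cortisol synthesis requires, was also named after its values were seen. It lay between 0.294 and 0.808 CPM in exposed libraries and between 0 and 0.358 CPM in controls.

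Of the hormones and receptors of the stress axis, 17 of 19 identifiers passed the filter, 10 above 0 and 7 below (median 0.48, and -0.17 among those with at least 1 CPM in 3 libraries or 0.19 without control 3-1). NR5A1, the master regulator of steroid-making cells, stands for 2 identifiers, with -0.76 ± 0.31 (ENSDARG00000103176) and -0.87 ± 0.37 (ENSDARG00000023362). These identifiers are also among the Leydig cell markers, and the part of Leydig cells in their values was not tested. PRKAR1A, a regulatory subunit of protein kinase A, had 0.51 ± 0.22. The corticotropin receptor mc2r, named after its values were seen, had 2.82, 4.03 and 3.23 CPM in exposed 2-2, 3-1 and 3-3, against 4.81, 5.37 and 1.22 CPM in control 1-2, 2-2 and 3-1. Its partner mrap, and pnmt of adrenaline-making cells, both also named after their values were seen, had 0 counts in all 6 libraries.

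Genes known to respond to glucocorticoids in fish or mammals, other than the members, lay mostly above 0. Their list shares klf3, klf13 and klf15 with the Krüppel-like factors below, and mmp13a with the neutrophil markers. Of 69 tested, 52 were above 0 and 17 below, with a median of 0.71, beside 0.04 over all genes. None passed edgeR's adjusted test. At an unadjusted edgeR p under 0.05, 26 were higher and 1 lower, where 9.68% and 6.79% of all genes were. DESeq2 called 15 higher and 0 lower, where it called 4.82% of all genes higher and 1.2% lower. All exposed libraries lay above all controls for 24 and below them for 3, as was so for 12.8% and 10.9% of all genes. This list was chosen with earlier results of these data known, so nothing is read from these counts. DUSP1, a phosphatase that switches off MAP kinases, had 219.8, 291 and 406 CPM in exposed 2-2, 3-1 and 3-3, against 38.8, 53.8 and 60.6 CPM in control 1-2, 2-2 and 3-1 (log2 fold change 2.58 ± 0.31). CISH, a feedback inhibitor of cytokine receptors, had 57.4, 95.4 and 42.8 CPM in exposed 2-2, 3-1 and 3-3, against 21.3, 16.1 and 25.5 CPM in control 1-2, 2-2 and 3-1. Higher in each exposed library were also zbtb16b, a zinc-finger factor, at 1.59 ± 0.34, PDK2 (ENSDARG00000059054), which turns off pyruvate dehydrogenase, at 2.23 ± 0.49, and the glutamine synthetase GLUL (ENSDARG00000100003) at 1.08 ± 0.30. ANXA1 (ENSDARG00000026726), which the epidermis also expresses, had 1546, 1686 and 343 CPM in exposed 2-2, 3-1 and 3-3, against 257, 1057 and 435 CPM in control 1-2, 2-2 and 3-1. With exposed 3-3 alone against the controls, the median of the list was 0.29.

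Several textbook targets in the same list, named after their values were seen, did not separate the groups. Both identifiers of PER1, a clock gene with a receptor site in mammals, overlapped, with 0.41 ± 0.33 (ENSDARG00000012499) and 0.18 ± 0.32 (ENSDARG00000056885). PCK1, the rate-limiting enzyme of glucose synthesis, had 0.685, 12.1 and 13.2 CPM in exposed 2-2, 3-1 and 3-3, against 8.45, 3.67 and 3.35 CPM in control 1-2, 2-2 and 3-1. DDIT4, an inhibitor of mTOR signalling, was highest in exposed 3-3, as FKBP5 was, with 5.64, 13.6 and 24.8 CPM in exposed 2-2, 3-1 and 3-3, against 11.4, 8.48 and 9.44 CPM in control 1-2, 2-2 and 3-1.

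Relatives of the members were taken as families. Among 5 arrestin-domain relatives, 4 lay above 0. ARRDC3 (ENSDARG00000036028), an adaptor that marks adrenergic receptors for breakdown in mammals, had 145, 114 and 335 CPM in exposed 2-2, 3-1 and 3-3, against 30.3, 29.1 and 40.6 CPM in control 1-2, 2-2 and 3-1 (log2 fold change 2.57 ± 0.43). The second identifier of that name (ENSDARG00000052690) had 140.1, 153 and 124 CPM in exposed 2-2, 3-1 and 3-3, against 52.0, 54.3 and 142 CPM in control 1-2, 2-2 and 3-1, so that control 3-1 was again the high control. The gene arrdc1a was high in exposed 2-2 and exposed 3-1, at 71.4 and 33.5 CPM, while exposed 3-3 at 13.0 CPM lay among the controls, which held 12.9 to 15.01 CPM. The TSC22 relatives tsc22d2 and TSC22D1 stayed near 0, with 0.31 ± 0.22 and 0.18 ± 0.20. Among 12 SGK and AKT relatives and their partners, 2 were higher at an unadjusted edgeR p under 0.05 and 0 were lower. Over all genes 9.68% were higher and 6.79% lower at that threshold, so nothing is read from this count. SGK2 (ENSDARG00000063370) had 43.9, 35.8 and 25.6 CPM in exposed 2-2, 3-1 and 3-3, against 13.0, 11.8 and 18.4 CPM in control 1-2, 2-2 and 3-1. NEDD4L, a ubiquitin ligase that SGK1 phosphorylates, had 0.65 ± 0.21. The kinase AKT2 (ENSDARG00000103612) had -0.44 ± 0.20, and PDPK1 (ENSDARG00000018285), which activates both families, 0.03 ± 0.19.

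Of 19 Krüppel-like factors other than KLF9, 17 lay above 0 (median 0.89, and 1.40 without control 3-1 or 0.44 with exposed 3-3 alone). At an unadjusted edgeR p under 0.05, 9 were higher and 0 lower, where 9.68% of all genes were higher and 6.79% lower. The factor klf2b had 277, 134 and 28.2 CPM in exposed 2-2, 3-1 and 3-3, against 16.4, 13.9 and 7.17 CPM in control 1-2, 2-2 and 3-1. KLF5 (ENSDARG00000015506), a factor of epithelia, had 47.4, 41.3 and 7.71 CPM in exposed 2-2, 3-1 and 3-3, against 1.82, 2.75 and 6.36 CPM in control 1-2, 2-2 and 3-1. Both ranked the exposed libraries as the summed epidermis markers did, and KLF9 did not. The part of epidermis in the values of klf2b, KLF5 or KLF9 was not tested. KLF3 had 1.45 ± 0.39, klf17 1.84 ± 0.49 and klf2a 0.67 ± 0.29.

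Of 20 bZIP factors related to the C/EBPs, 13 lay above 0 (median 0.39, and 0.63 without control 3-1 or 0.12 with exposed 3-3 alone). At an unadjusted edgeR p under 0.05, 5 were higher and 0 lower, where 9.68% of all genes were higher and 6.79% lower. The repressor gene nfil3-6 had 52.2, 51.6 and 68.5 CPM in exposed 2-2, 3-1 and 3-3, against 18.1, 25.5 and 30.6 CPM in control 1-2, 2-2 and 3-1 (log2 fold change 1.22 ± 0.26). NFIL3 had 1.13 ± 0.39, hlfa 1.84 ± 0.48 and tefa 0.91 ± 0.35, whereas atf4a of the amino acid response had 0.32 ± 0.24.

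Of 29 immediate early genes, which respond within minutes to many stimuli, 26 lay above 0 (median 1.33). The median was 0.57 with exposed 3-3 alone against the controls and 1.93 without control 3-1. At an unadjusted edgeR p under 0.05, 14 were higher and 0 lower, where 9.68% of all genes were higher and 6.79% lower. FOS (ENSDARG00000031683) had 158, 286 and 57.9 CPM in exposed 2-2, 3-1 and 3-3, against 23.2, 22.1 and 29.3 CPM in control 1-2, 2-2 and 3-1. The log2 fold changes of ier2b, egr2a and BTG2 were 3.15 ± 0.57, 3.62 ± 0.76 and 2.26 ± 0.47. ZFP36L1, which degrades unstable transcripts, stands for 2 identifiers, at 1.45 ± 0.30 (ENSDARG00000016154) and 0.04 ± 0.32 (ENSDARG00000021443). FOS was lowest of the exposed libraries in exposed 3-3, the library in which FKBP5, tsc22d3 and DUSP1 were highest.

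**Figure D5:**
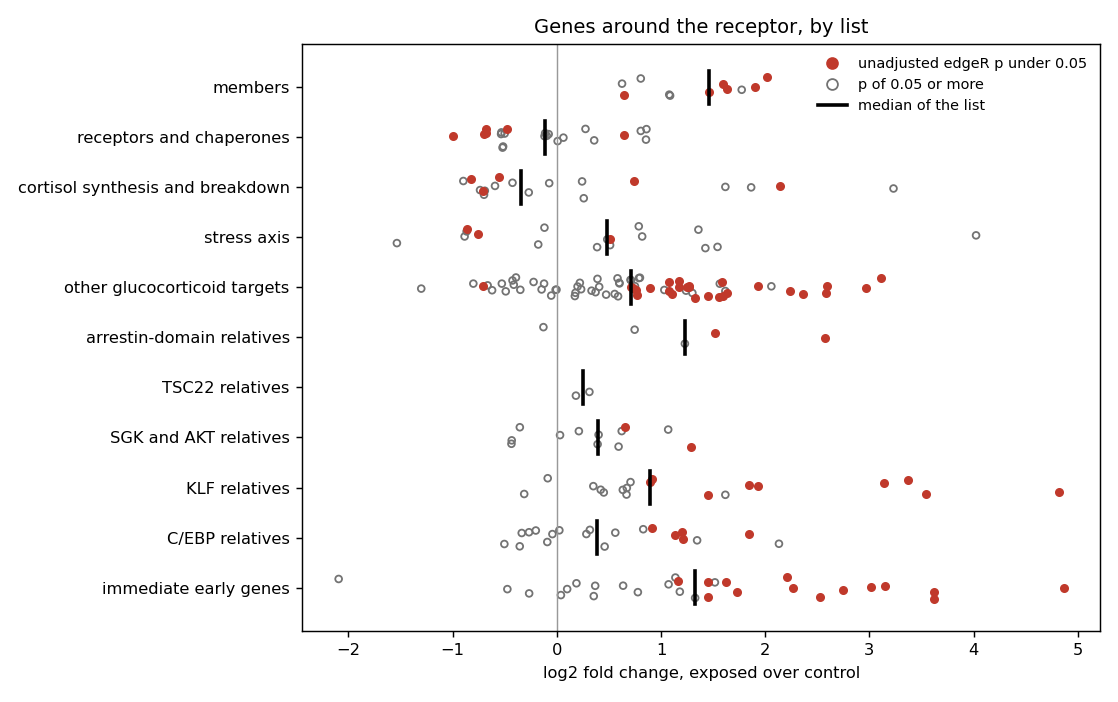
Log2 fold change, exposed over control (horizontal axis), of every tested gene in the member list and the 10 lists around it (rows); filled red points have an unadjusted edgeR p under 0.05, open points do not, and black bars are list medians. The members, other targets, Krüppel-like factors and immediate early genes lie mostly right of 0, while receptors with chaperones and cortisol synthesis centre below 0.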

How the data were processed

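The deposited file is a table of unnormalized counts per Ensembl gene, with a column for each fish. Per the submitters' processing notes, reads were aligned with STAR to GRCz11; the sources used here do not name the counter or annotation release, nor how strand and mates were handled. Between 66.8% and 75.1% of the counts from 10 to 99 were even, so counting error may rest on fewer fragments than the totals state. Columns were matched to samples by the label descriptions, and 0 were left out. Symbols came from a table pairing 29201 identifiers with a name; 406 symbols were listed, 91 found only under a paralog's common name and 27 not found.

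Genes were filtered with filterByExpr, scaled by TMM and fitted with edgeR 4.0.16 (glmQLFit, robust; glmQLFTest, two-sided; group as the only term) in R 4.3.3. Each SE was taken as the size of the log2 fold change over the root of its F statistic. With 3 against 3 fish an exact permutation p cannot go below 0.1, so overlap between groups was described without a permutation test. Alternatives were DESeq2 1.42.0, voom from limma 3.58.1, other scalings and filters, thinned counts, a replicate block and each library left out. The fits were first tested on simulated data, on which DESeq2 made more false calls than edgeR and edgeR missed more of the true changes.

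The members and lists were chosen with earlier results of these data known. Besides the members, the text names the 2 most abundant genes of each pathway list and up to 4 with the smallest p under 0.05. It also names the most abundant gene of some marker lists and the genes most like NR3C1 and FKBP5. Others are said to be named after their values were seen. Other cell type lists had median log2 fold changes of 0.34 (neutrophils), 1.27 (lymphocytes), 0.24 (interrenal and chromaffin cells), -0.13 (Sertoli cells), -0.76 (Leydig cells) and 0.31 (endothelium). Of these, the interrenal and chromaffin, Sertoli and endothelium lists were set beside no member or pathway list. Single genes of the interrenal and chromaffin list are named above. A planned comparison of promoter and protein sequences was not made here.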

Additional observations from a re-analysis of the deposited data

How the results depend on the processing

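All 11 member identifiers kept a log2 fold change above 0 under every alternative run, except FKBP5 without exposed 3-3 (its values with single libraries left out ran from -0.24 to 1.14, and 0.81 used all libraries). The median of the members ran from 1.25 to 1.51 with single libraries left out and from 1.41 to 1.60 under 11 other settings. The members whose exposed values all lay above the controls numbered between 6 and 8 with 1 library left out (16.4% to 21.2% of all genes), 8 without control 3-1 and exposed 3-1 (24.7%), and 9 with exposed 3-3 alone against the controls (29.8%), where 12.8% of all genes did so with all 6 libraries. These last 2 settings were chosen after seeing the data, and the lone exposed library is assumed to vary like the controls.

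The count of genes called by edgeR, 0 of 26108 (4298 at an unadjusted p under 0.05), was 1 under relative log expression, 1 under upper quartile, 1 under library totals, 12 with no filter, 70 with the bias-adjusted fit, 1756 with DESeq2 (1405 higher) and 0 with limma voom. It ran from 0 to 396 with 1 library left out, the highest without exposed 3-3 and 1 without exposed 2-2. The replicate block gave 5. The groups share only part of the replicate numbers, so the numbers were not taken as pairs. Correlations over genes of deviations from the group mean were 0.052, 0.12 and -0.069 for same-numbered libraries. For the other pairs they ran from -0.086 to 0.071. Deviations within a group sum to 0, so these correlations cannot decide whether libraries are paired. By edgeR with Benjamini-Hochberg adjustment, 3 members passed both in the bias-adjusted fit and without exposed 3-3, ARRDC2 (adjusted p = 0.0252 and 0.0136), the abundant TXNIP (0.0480 and 0.0396) and CEBPA (0.0470 and 0.0358), and ARRDC2 also without the filter (0.0385). Over all genes, 70 of 26108, 396 of 26635 and 12 of 29681 passed in these settings. Because the members were chosen with this comparison in view, nothing is read from their calls.

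The list medians that changed sign were those of cortisol synthesis, from -0.50 to 0.025 with 1 library left out (0.025 without control 2-2), of the stress axis (-0.17 at 1 CPM or more in 3 libraries, where scarce genes drop out, and -0.087 without control 3-1 and exposed 3-1), of liver markers, from -1.80 to 2.12 (2.12 without control 3-1; 0.52 in voom and 0.89 without control 3-1 and exposed 3-1), of neutrophil markers (-0.082 without exposed 3-3), of interrenal and chromaffin markers (-0.14 without exposed 3-1, -0.54 at 1 CPM or more in 3 libraries, -0.52 without control 3-1 and exposed 3-1), and of Sertoli markers, from -0.40 to 0.0090 (0.0090 without control 1-2; 0.016 with the replicate block). The kidney tubule median, 1.25, was 0.36 without exposed 2-2. The causes were not tested. The lowest count of a member was 84.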

Other observations

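Some glucocorticoid targets that the liver uses, named after their values were seen, were high in the libraries with the most liver transcripts, control 3-1 and exposed 3-1. TAT, a tyrosine-degrading enzyme of the liver, had 18.7, 231 and 38.0 CPM in exposed 2-2, 3-1 and 3-3, against 25.6, 4.46 and 679 CPM in control 1-2, 2-2 and 3-1. The hepatic lipase LIPC had 2.66, 40.2 and 8.14 CPM in exposed 2-2, 3-1 and 3-3, against 8.90, 0.816 and 58.8 CPM in control 1-2, 2-2 and 3-1. The growth-factor binding protein gene igfbp1b differed from these and was highest in exposed 3-1, at 34.1 CPM, where exposed 2-2 and exposed 3-3 had 0.920 and 7.13 CPM and the controls 1.97 to 5.74 CPM.

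The stress-responsive chaperone hsp70l, also named after its values were seen, had 9.86, 11.3 and 53.5 CPM in exposed 2-2, 3-1 and 3-3, against 32.3, 42.4 and 33.5 CPM in control 1-2, 2-2 and 3-1. Exposed 3-3 was thus the highest library and the other exposed libraries the lowest. The chemokine receptor CXCR4 (ENSDARG00000041959), also named after its values were seen, was likewise highest in exposed 3-3. It had 78.0, 33.1 and 218 CPM in exposed 2-2, 3-1 and 3-3, against 21.4, 20.2 and 12.9 CPM in control 1-2, 2-2 and 3-1.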
